A study of Mus musculus with 22 samples.

Results

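Of the 47729 genes counted in 22 mouse liver libraries, 10 that encode plasma proteins of the acute-phase response were taken by symbol: the serum amyloid A genes Saa1, Saa2, Saa3 and Saa4, the lipocalin gene Lcn2, the orosomucoid genes Orm1, Orm2 and Orm3, the haptoglobin gene Hp and the hemopexin gene Hpx. The libraries are polyA RNA of frozen livers from male C57BL/6 mice. The knockout mice (KO) are labelled Slc10a1-/-. Slc10a1 encodes NTCP, a sodium-dependent importer of conjugated bile acids on the blood-facing side of hepatocytes. There were 3 KO and 3 wild-type (WT) livers at 4 weeks of age, 6 KO and 4 WT livers at 8 weeks, and 3 KO and 3 WT livers at 20 months. The study asked about bile acid sulfation in NTCP deficiency. No treatment is given in the labels, and the deleted part of Slc10a1 and whether WT mice were littermates are not given in the sources used here. Nothing says whether each library is a separate mouse, so p-values measure the spread between these libraries.

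In the acute-phase response, hepatocytes change the plasma proteins they secrete when cytokines such as interleukin-6 and interleukin-1 reach them. Interleukin-6 acts through the receptor subunits Il6ra and Il6st and the transcription factor Stat3, while interleukin-1 acts through NF-kB, and C/EBP factors bind the promoters of many of the induced genes. Saa1 and Saa2 encode inducible apolipoproteins of high-density lipoprotein, and serum amyloid A is the precursor of amyloid A deposits. Saa3 is made in mice by macrophages and adipocytes as well as by liver, and Saa4 encodes an apolipoprotein known as constitutive rather than inducible. Lcn2 encodes a protein that binds bacterial siderophores and so withholds iron, and neutrophils store it in their granules. The Orm genes encode alpha-1-acid glycoproteins, which carry drugs and other ligands in plasma. Haptoglobin binds free hemoglobin and hemopexin binds free heme.

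On GRCm38, with spans from GENCODE M21, the Saa genes lie close together, the Orm genes lie close together on another chromosome, and Lcn2, Hp and Hpx lie apart. Saa1 spans chr7:46740497-46742980 on the minus strand, Saa2 spans chr7:46751790-46754313 on the plus strand, Saa3 spans chr7:46711998-46715700 on the minus strand and Saa4 spans chr7:46727998-46732603 on the minus strand. Orm1 spans chr4:63344560-63348163, Orm3 spans chr4:63356162-63359511 and Orm2 spans chr4:63362449-63365878, each on the plus strand. Lcn2 spans chr2:32384633-32388252, Hp spans chr8:109575128-109579172 and Hpx spans chr7:105591613-105600137, each on the minus strand. Overlap of these spans with other annotated genes was not examined. Saa1 and Saa2 share sequence, and so do the Orm genes: of the 50-base stretches of the principal transcript, 14.8% in Saa1, 9.12% in Saa2, 20.4% in Orm1, 22.7% in Orm2 and 3.59% in Orm3 also occur in a transcript of another gene, against 0% in Lcn2, Hp and Hpx. Counts can therefore be split between Saa1 and Saa2 and among the Orm genes with some uncertainty, and their sums are given beside the results they change.

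RefSeq (GRCm38.p6) gives a start-site sequence for 8 of the 10 genes. The bases upstream of the start of 5 of them are shown to set the inducible pair Saa1 and Saa2 beside Saa3, Saa4 and Orm2, whose values across these libraries are given separately below. Bases that GENCODE M21 places inside the gene were left out of the sequences shown, but were kept in the search and comparison below. Each is written 5′ to 3′ on the strand of its gene, from chr7:46742981-46743230 (minus) for Saa1, chr7:46751583-46751789 (plus) for Saa2, chr7:46715701-46715926 (minus) for Saa3, chr7:46732604-46732853 (minus) for Saa4 and chr4:63362199-63362448 (plus) for Orm2. Capitals mark matches to the C/EBP letters TTGCNNAA on either strand.
Saa1: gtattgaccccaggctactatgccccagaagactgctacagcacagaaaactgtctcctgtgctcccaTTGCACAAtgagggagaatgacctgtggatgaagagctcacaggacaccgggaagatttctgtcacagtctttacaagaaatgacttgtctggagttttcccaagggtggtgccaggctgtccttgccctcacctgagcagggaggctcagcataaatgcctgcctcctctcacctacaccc
Saa2: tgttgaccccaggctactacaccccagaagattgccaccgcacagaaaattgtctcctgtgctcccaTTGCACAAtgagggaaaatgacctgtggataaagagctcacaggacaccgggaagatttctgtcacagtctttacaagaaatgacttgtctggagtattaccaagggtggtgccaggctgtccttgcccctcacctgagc
Saa3: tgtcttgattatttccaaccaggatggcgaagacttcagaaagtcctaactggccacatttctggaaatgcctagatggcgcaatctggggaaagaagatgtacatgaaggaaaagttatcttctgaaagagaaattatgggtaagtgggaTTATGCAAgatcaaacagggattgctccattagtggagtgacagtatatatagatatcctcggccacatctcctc
Saa4: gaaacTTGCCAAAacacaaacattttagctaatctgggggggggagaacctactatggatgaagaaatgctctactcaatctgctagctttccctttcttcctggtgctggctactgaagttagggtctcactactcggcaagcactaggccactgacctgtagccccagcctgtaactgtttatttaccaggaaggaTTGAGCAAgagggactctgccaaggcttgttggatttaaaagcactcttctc
Orm2: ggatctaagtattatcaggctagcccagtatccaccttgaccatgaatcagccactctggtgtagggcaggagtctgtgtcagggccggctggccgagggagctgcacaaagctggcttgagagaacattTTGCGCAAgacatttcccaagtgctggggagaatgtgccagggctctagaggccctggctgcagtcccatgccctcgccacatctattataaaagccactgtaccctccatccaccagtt

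The C/EBP letters were found within 250 bases upstream of the RefSeq start in 8 of the 8 genes, and in 9.56% of 32851 RefSeq promoter windows of that length. The Lcn2 window lies inside the span that GENCODE M21 gives the gene, so its match is not upstream of that span. The match lies at -182 to -175 from the start in Saa1, at -183 to -176 in Saa2, at -99 to -92 in Saa3 and at -120 to -113 in Orm2, and Saa4 has matches at -245 to -238 and -52 to -45. The STAT letters TTCNNNGAA were in 0 of the 8 windows and in 7.02% of all windows, the NF-kB motif was in 0 of the 8 and in 3.9% of all, and the HNF1 motif was in 0 of the 8 and in 0.00913% of all. These letters were searched on both strands, overlaps between motifs were not removed, and a match is a description of letters, not a bound site. The upstream sequences of Saa1 and Saa2 were identical at 94.8% of alignment positions, with gap positions counted, and those of Orm2 and Orm3 at 85.5%. On the same measure the value was 48.5% for Saa1 with Saa3 and 46.3% for Saa1 with Saa4.

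The 4-week libraries held 5496425 to 6956124 counts in genes, those of 8 weeks 18950112 to 26066897 and those of 20 months 18032355 to 26789350. Values are in CPM, counts scaled to a common library size, and 3 counts correspond to 0.112 to 0.546 CPM. The scaling used trimmed-mean (TMM) factors over the 22 libraries. Slc10a1 itself had 111.5 to 264 CPM in KO and 604 to 710 CPM in WT at 4 weeks (log2 fold change -1.93, edgeR adjusted p = 0.0117). It had 49.2 to 93.3 CPM in KO and 432 to 464 CPM in WT at 8 weeks (-2.72, adjusted p = 9.00e-05), and 90.5 to 103 CPM in KO and 152 to 365 CPM in WT at 20 months (-1.49, adjusted p = 0.821). Its KO and WT libraries did not overlap at any age. Hepatocyte markers summed to 76310, 201400 and 164600 CPM in the 4-week KO libraries and 142600 to 169400 CPM in WT, with KO library 1 lowest. They summed to 89260 to 208200 CPM in KO and 92810 to 106500 CPM in WT at 8 weeks. At 20 months they summed to 74910 to 100000 CPM in KO and 46310, 68350 and 76150 CPM in WT, where WT libraries 1 and 2 lay below each KO library. Alb, the largest part of that sum, had 57140 ± 8173 CPM in KO and 34480 ± 9955 CPM in WT (SD, n = 3 each). Among these markers, Alb, Apoa1, Ttr and Tat are also counted below with the genes known to fall in the acute phase. The sum is therefore no measure of hepatocyte content alone. The part of these differences in the results was not tested. Ages were sequenced differently, with paired reads at 4 weeks and single reads at 8 weeks and 20 months per the file names. The age of 4 weeks therefore cannot be told apart from read format. Levels were not tested between any ages, including 8 weeks and 20 months, which share a format.

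Several libraries stood apart within their group. At 20 months, WT libraries 1 and 2 had far higher Saa1, Saa2, Lcn2, Orm, Hp and Hpx levels than WT library 3, which lay near the KO livers. At 8 weeks, WT library 3 was lower than the other WT libraries in most of the 10 genes. At 4 weeks, KO library 1 had more Saa1, Saa2, Lcn2 and Orm3 than KO libraries 2 and 3. The 20-month fold changes without WT libraries 1 and 2 were -0.12 for Saa1, 0.08 for Saa2, 0.69 for Saa3, -0.04 for Saa4, -0.03 for Lcn2, -0.37 for Orm1, -0.33 for Orm2, -0.48 for Orm3, 0.27 for Hp and -0.03 for Hpx, in log2 terms and by edgeR. These fits leave WT library 3 alone in its group, a choice made after seeing the levels of these same genes. Small values, here and below, therefore follow from that choice and are no test. Values without 4-week KO library 1 or 8-week WT library 3 stand beside the calls that these libraries change.

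At 4 weeks, Saa3, Saa4 and Orm1 were lower in KO livers, and the other 6 genes tested by edgeR did not pass. Among these 9, Saa4 had the largest fold change, with a log2 value of -4.72, and Orm1 fell by 0.91 on the log2 scale. The fitted value of Saa3 was -3.88, a size that rests on 7, 3 and 1 counts in the KO libraries. By edgeR's quasi-likelihood test with Benjamini-Hochberg adjustment, 3 of the 9 genes tested were lower in KO and 0 were higher, where 5.6% of 11144 genes tested were called lower and 5.17% higher. Of the 9, 4 had an unadjusted p below 0.05, against 29.1% of the genes tested. The median log2 fold change of the 9 was -0.89, against 0.01 for the genes tested, with 7 negative and 2 positive values. Orm3 did not pass the filter on low counts. DESeq2, which also tested Orm3, called 4 of the 10, Saa3, Saa4 and Orm1 lower and Orm3 higher in KO, where it called 11.6% of genes.

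At 8 weeks none of the 10 genes passed the edgeR test, although 9 of 10 log2 fold changes were negative and 7 had an unadjusted p below 0.05. The share called over 14522 genes was 0.0275% by adjusted p and 10.4% by unadjusted p. In 0 of the 10 did every KO library lie below every WT library, where 1.06% of genes did. The median log2 fold change of the 10 was -1.27, against 0.02 for the genes tested. DESeq2 called 1 of the 10, Orm2, where it called 0.658% of genes in all.

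At 20 months the fitted differences were larger than at the younger ages in 7 of the 10 genes, the exceptions being Saa3, Saa4 and Orm3, yet 0 of the 10 genes passed the edgeR test, where the share called over 13966 genes was 0%. All 10 log2 fold changes were negative, from -7.23 for Saa2 to -0.57 for Saa4, and 8 had an unadjusted p below 0.05, against 5.53% of genes. Their median was -2.78, against 0.00 for the genes tested. DESeq2 called 6 lower in KO (Saa1, Saa2, Lcn2, Orm1, Orm2 and Orm3), where it called 0.334% of genes. With 1 library left out in turn, Saa1, Lcn2, Orm1 and Orm2 were each called by DESeq2 in 1 of 6 fits, the one without WT library 3, and Saa2 and Orm3 in 2 of 6. Leaving out any KO library, or WT library 1 or 2, thus ended the calls, except those of Saa2 without KO library 1 (adjusted p = 0.0476) and Orm3 without KO library 3 (0.018). Without WT libraries 1 and 2, a choice made after seeing the data, neither tool called any of the 10, with a single WT library left that is assumed to vary like the KO group.

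**Figure D1:**
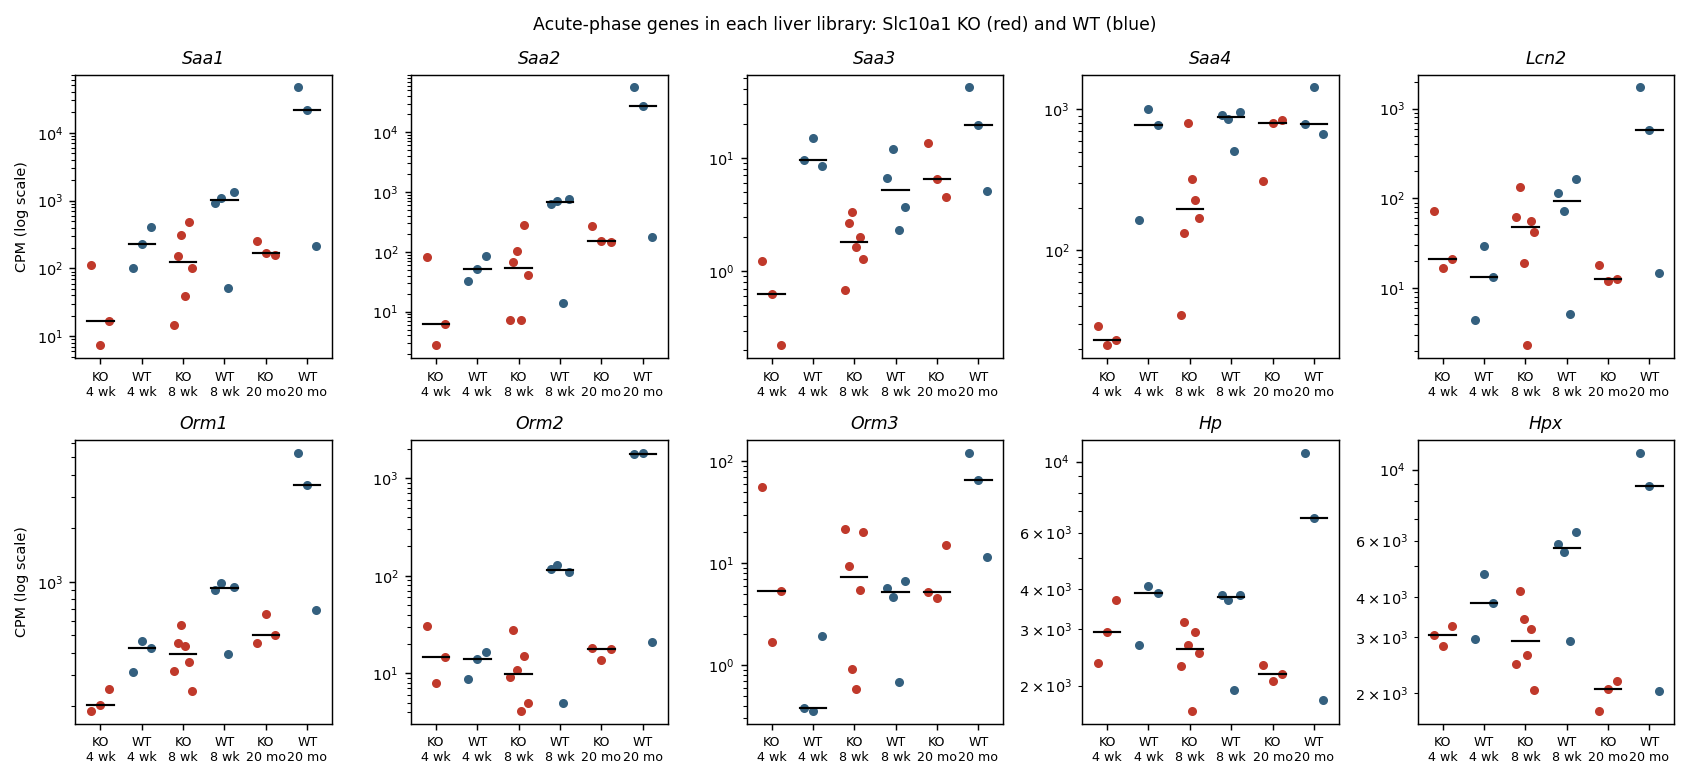
CPM on a log axis for each of the 10 genes in each library, with KO (red) left of WT (blue) at 4 weeks, 8 weeks and 20 months and a black line at the median. The 20-month WT group splits widely in Saa1, from 211.7 to 46570 CPM, while the 4-week KO libraries lie below the WT libraries in Saa3, Saa4 and Orm1.

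**Figure D2:**
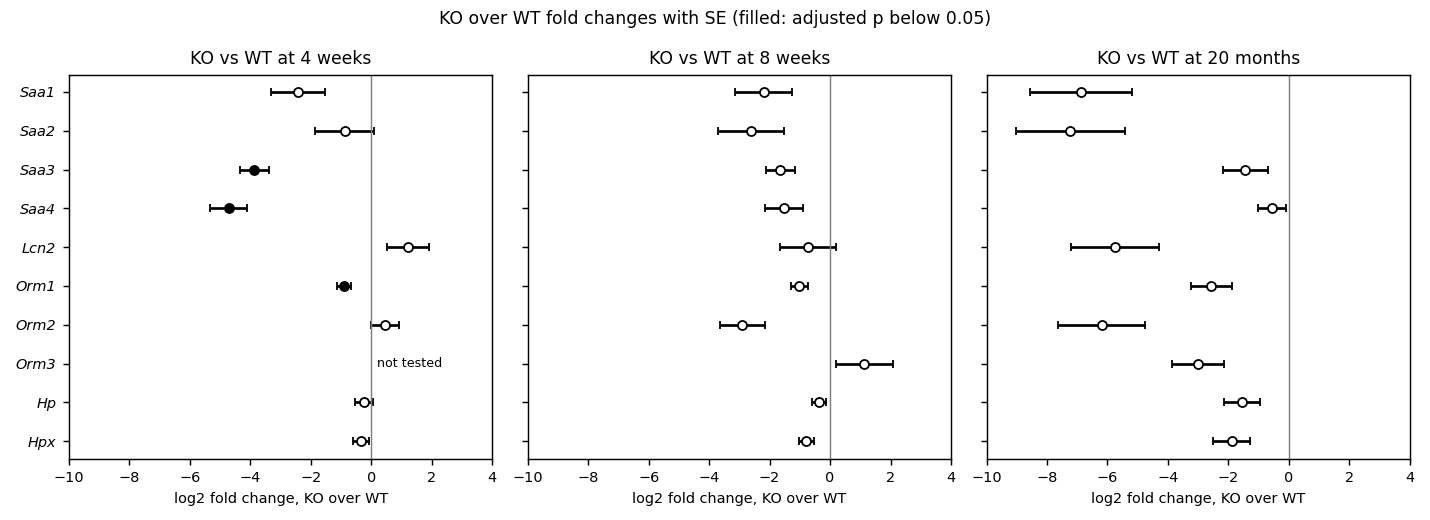
Log2 fold change of KO over WT with its standard error (SE) for each gene at the 3 ages, with filled points for an edgeR adjusted p below 0.05. Filled points occur at 4 weeks for Saa3, Saa4 and Orm1, and the 20-month values reach -7.23 with wide errors.

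Saa1 had 110.8, 7.33 and 16.8 CPM in the 4-week KO libraries 1 to 3, against 100.4, 228.5 and 402.6 CPM in the WT libraries. KO library 1 lay within the WT range and the other 2 KO libraries lay below it. Its log2 fold change was -2.42 ± 0.90 (SE) with an edgeR adjusted p of 0.115. Without KO library 1 it was -4.32 with an adjusted p of 0.00321, so that library decides the call. At 8 weeks Saa1 had a lowest, median and highest value of 14.6, 126.5 and 492 CPM in the KO libraries, against 928, 1102, 51.2 and 1343 CPM in WT libraries 1 to 4. WT library 3 lay inside the KO range, and the other WT libraries lay above every KO library. The fitted KO over WT log2 change was -2.19 ± 0.94 with an adjusted p of 0.474.

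At 20 months Saa1 had 258, 168 and 157 CPM in the KO libraries, against 46570, 22020 and 211.7 CPM in the WT libraries. WT library 3 lay between the KO values, and WT libraries 1 and 2 lay far above all 4. In log2 terms KO over WT was -6.89 ± 1.69 with an edgeR adjusted p of 0.821 and a DESeq2 adjusted p of 0.00448. In bulk liver, fewer cells that make a transcript and less transcript per cell cannot be told apart.

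Saa2, the close copy of Saa1, had 81.4, 2.72 and 6.20 CPM in the 4-week KO libraries and 32.8, 51.6 and 85.15 CPM in the WT libraries. As in Saa1, KO library 1 lay inside the WT range and KO libraries 2 and 3 below it. Its log2 fold change was -0.89 ± 0.97 (edgeR adjusted p = 0.583), and -3.65 without KO library 1 (adjusted p = 0.00235). In the 8-week libraries it had 7.22, 54.2 and 282 CPM as the lowest, median and highest KO values, against 627, 711, 14.2 and 771 CPM in WT. WT library 3 again lay within the KO range and the other WT libraries above it. The log2 fold change was -2.63 ± 1.10 (adjusted p = 0.474).

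At 20 months Saa2 had 268, 149 and 144.5 CPM in KO livers, against 55960, 27740 and 177.5 CPM in WT livers. The groups overlapped through WT library 3. Fitted, its log2 fold change was -7.23 ± 1.79, with an edgeR adjusted p of 0.821 and a DESeq2 adjusted p of 0.00417, and without WT libraries 1 and 2 it was 0.08.

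Because reads of Saa1 and Saa2 can be exchanged, their sum was also tested. The log2 fold change of the sum was -1.99 at 4 weeks (edgeR adjusted p = 0.202), -2.34 at 8 weeks (0.474) and -7.06 at 20 months (0.822), which left the calls as they were for each gene. Together the pair took 0.0616%, 0.0314% and 0.0298% of counts in the 20-month KO libraries, against 11.2%, 5.12% and 0.0391% in the WT libraries. In the other 16 libraries the share was at most 0.219%, in WT library 4 at 8 weeks. Exact binomial intervals, which cover counting error only, were 11.2% to 11.3% and 5.11% to 5.13% for WT libraries 1 and 2.

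The split between both copies differed among libraries as well. Saa2 made 42.3%, 27.1% and 26.9% of the pair's counts in the 4-week KO libraries and 24.6%, 18.4% and 17.5% in the WT libraries. At 8 weeks it made 15.4% to 36.4% in the KO libraries, against 40.3%, 39.2%, 21.8% and 36.5% in the WT libraries. At 20 months it made 50.9%, 47.0% and 47.9% in KO and 54.6%, 55.7% and 45.6% in WT. These are values of counts over transcripts of nearly equal length, 609 bases for Saa1 and 652 bases for Saa2, and no test was made of them. The 20-month shares, those of KO livers and WT library 3 included, were above those of the 4- and 8-week libraries.

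**Figure D3:**
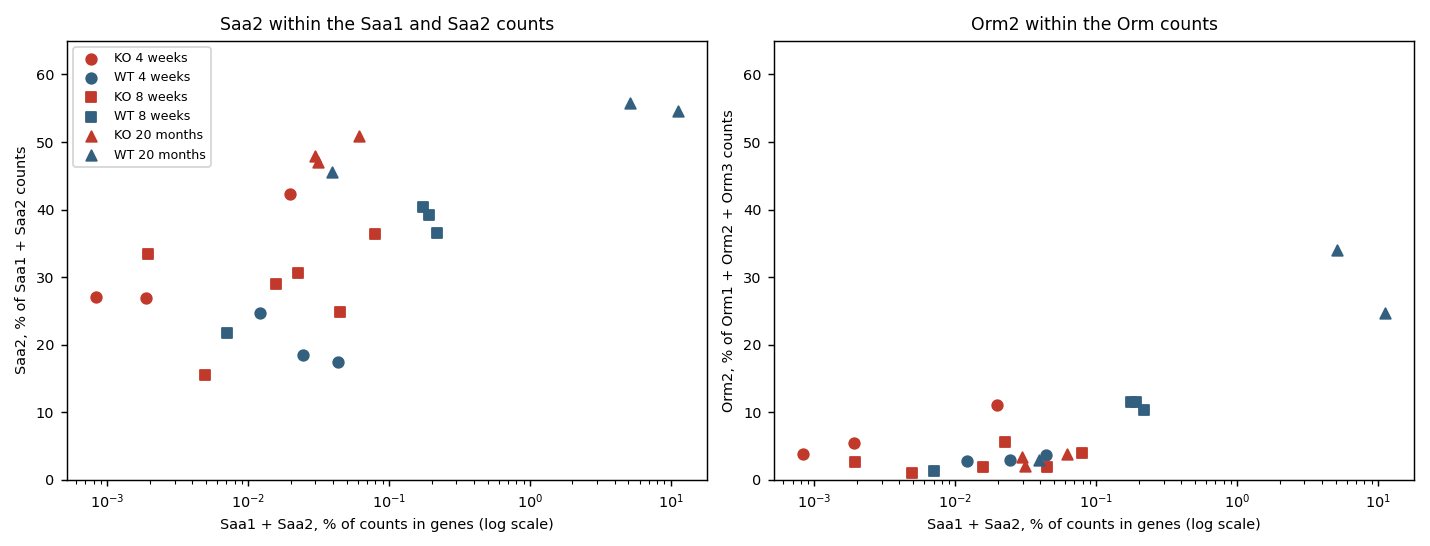
Share of Saa2 in the Saa1 and Saa2 counts (left) and share of Orm2 in the Orm counts (right), in percent, against the share of Saa1 and Saa2 in the counts of each library on a log axis, with 1 point per library, KO in red and WT in blue. The 20-month WT libraries 1 and 2 stand far right at 11.2% and 5.12%, with Orm2 shares of 24.7% and 34.04%.

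Saa3 was low in liver at every age. It had 1.22, 0.629 and 0.221 CPM in the 4-week KO libraries, which is 7, 3 and 1 counts, against 9.52, 14.9 and 8.52 CPM in WT, which is 50, 84 and 53 counts. Each KO library lay below each WT library, and KO libraries 2 and 3 lay at or under 3 counts. Its log2 fold change was -3.88 ± 0.48 with an edgeR adjusted p of 0.00364, and the call held with each library left out in turn, with adjusted p from 0.00144 to 0.0199. Markers of macrophages, which also make Saa3, summed to 504 to 774 CPM in these KO libraries and 842 to 999 CPM in WT, with all 12 markers detected in each library. Of the 12, Csf1r (-0.99), Clec4f (-1.32) and Timd4 (-1.18) were lower in KO and Marco (2.63) was higher, where edgeR called 10.8% of genes. The part of these cells in the Saa3 result was not tested.

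Adipocyte markers summed to 249 to 321 CPM in 4-week KO livers and 172 to 249 CPM in WT, with Lep, Plin1 and Retn at 0 in all 6 libraries. Adipoq was at 0 in each KO library and in WT library 1. Most of the sum was Pnpla2, at 219 ± 25.9 CPM in KO and 145 ± 47.1 CPM in WT (SD, n = 3 each). The part of adipocytes in the Saa3 result was not tested. At 8 weeks Saa3 had 0.685, 1.81 and 3.29 CPM as the lowest, median and highest KO values, against 6.60, 11.9, 2.31 and 3.70 CPM in WT. Inside the KO range lay WT library 3, with the others above it. The fitted KO over WT log2 change was -1.65 ± 0.48 (edgeR adjusted p = 0.474), beside macrophage sums of 459 to 1132 CPM in KO and 482 to 670 CPM in WT. At 20 months Saa3 had 13.6, 6.49 and 4.50 CPM in KO and 41.6, 19.5 and 5.08 CPM in WT, and the groups overlapped. In log2 terms KO over WT was -1.44 ± 0.74 (adjusted p = 0.821), and 0.69 without WT libraries 1 and 2. Macrophage markers summed to 860, 411 and 535 CPM in those KO libraries and 1756, 1141 and 462 CPM in the WT libraries, and their part was not tested.

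Saa4, the constitutive family member, had 29.1, 21.2 and 23.2 CPM in the 4-week KO libraries, against 164, 1001 and 782 CPM in WT. The KO values lay close together and below each WT value, and WT library 1 was the lowest of its group. The log2 fold change was -4.72 ± 0.62 (edgeR adjusted p = 0.00465), and with each library left out in turn the adjusted p was 3.46e-04 to 0.0307. At 8 weeks it had 34.8, 197.9 and 803.5 CPM as the lowest, median and highest KO values, against 910, 861, 507 and 956 CPM in WT. One KO library, library 3, lay within the WT range and the other KO libraries lay below it. Its log2 fold change was -1.53 ± 0.63 (edgeR adjusted p = 0.474).

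At 20 months Saa4 had 310, 795 and 846 CPM in KO, against 789, 1433 and 670 CPM in WT. The groups overlapped, and WT libraries 1 and 2, so high in Saa1 and Saa2, were not both above the KO livers here. The fitted KO over WT log2 change was -0.57 ± 0.46 (edgeR adjusted p = 0.834). Tested in 1 fit of the 22 libraries, the KO difference in Saa4 at 20 months minus that at 4 weeks was 4.16 ± 1.08 on the log2 scale (edgeR adjusted p = 0.0349), where 4.52% of 15877 genes had a difference between these ages.

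Lcn2, the siderophore-binding lipocalin, had 71.6, 16.8 and 21.04 CPM in the 4-week KO libraries and 4.38, 29.5 and 13.3 CPM in WT. The groups overlapped, with KO library 1 the highest of the 6. In log2 terms KO over WT was 1.22 ± 0.69 (edgeR adjusted p = 0.276), and 0.28 without KO library 1. In the 8-week libraries it had 2.31, 48.7 and 135 CPM as the lowest, median and highest KO values, against 114.9, 72.4, 5.16 and 162.9 CPM in WT. The KO libraries spanned most of the WT range, and the log2 fold change was -0.73 ± 0.93 (adjusted p = 0.739). At 20 months it had 18.4, 12.0 and 12.8 CPM in KO, against 1721, 579 and 14.7 CPM in WT. The value of WT library 3 was within the KO range, and the log2 fold change was -5.75 ± 1.45 (edgeR adjusted p = 0.821, DESeq2 adjusted p = 0.0142).

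Neutrophils also hold Lcn2, so their other markers were summed, 13 genes without Lcn2. The sum was 25.4, 10.3 and 11.5 CPM in the 20-month KO libraries, against 3930, 496 and 10.2 CPM in the WT libraries. S100a9, a calcium-binding protein of neutrophils, had 3.33 to 6.36 CPM in KO and 1676, 164 and 4.08 CPM in WT. The granule protein genes Ngp (740.8 and 122.6 CPM), Ltf (412 and 59.8 CPM) and Mpo (258 and 41.7 CPM) were high in WT libraries 1 and 2 too. The neutrophil surface marker Ly6g was at 0 counts in the 3 KO libraries and had 7.83, 1.37 and 0.0552 CPM in WT. By the edgeR adjusted p none of the 12 neutrophil markers tested beside Lcn2 passed at 20 months, and 11 had an unadjusted p below 0.05, against 0% and 5.53% of the genes tested. DESeq2 called 7 of the 13 lower in KO, where it called 0.334% of genes.

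Neutrophil markers did not separate the groups at the younger ages. They summed to 10.98 to 26.8 CPM in KO and 9.90 to 22.6 CPM in WT at 4 weeks, and to 3.36 to 18.2 CPM in KO and 3.58 to 14.7 CPM in WT at 8 weeks. The highest Lcn2 values of those ages, 71.6 CPM in 4-week KO library 1 and 162.9 CPM in 8-week WT library 4, stood beside sums of 10.98 and 12.47 CPM. The part of neutrophils in the 20-month levels was not tested.

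**Figure D4:**
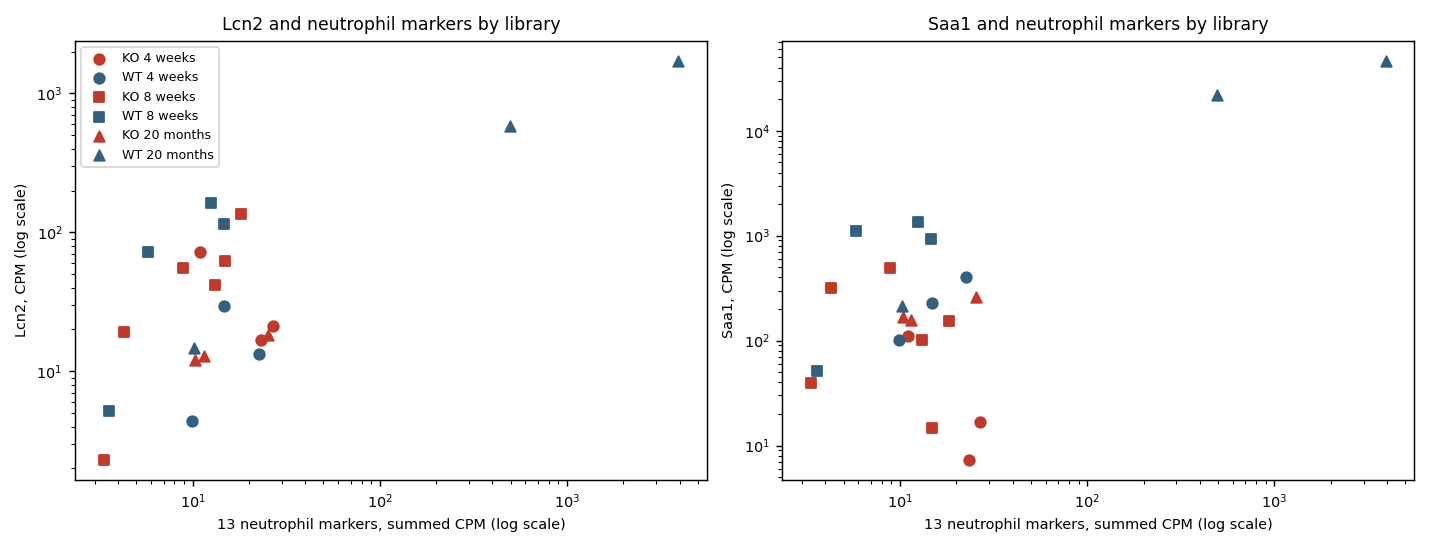
Lcn2 (left) and Saa1 (right) in CPM against the summed CPM of 13 neutrophil markers, both axes log, with 1 point per library, KO in red and WT in blue. The 20-month WT libraries 1 and 2 lie at sums of 3930 and 496 CPM, while the other 20 libraries lie between 3.36 and 26.8 CPM with Lcn2 from 2.31 to 162.9 CPM.

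Orm1, the main alpha-1-acid glycoprotein transcript of these livers, had 188.5, 202 and 249.6 CPM in the 4-week KO libraries and 312, 465 and 426 CPM in WT. Each KO library lay below each WT library. The log2 fold change was -0.91 ± 0.23 (edgeR adjusted p = 0.0419), close to the threshold, and it passed in 2 of the 6 fits with a library left out, with adjusted p of 0.0341 to 0.169. It was lost without WT library 2 (0.169), WT library 3 (0.166), KO library 2 (0.091) or KO library 3 (0.0749). Non-overlap in this direction, seen in Orm1, Saa3 and Saa4, occurred in 18.5% of the genes tested.

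At 8 weeks Orm1 had 244.7, 393.6 and 570 CPM as the lowest, median and highest KO values, against 905, 990, 395 and 938 CPM in WT. WT library 3 lay in the middle of the KO range and the other WT libraries above it. Fitted, its log2 fold change was -1.02 ± 0.28 (edgeR adjusted p = 0.474). At 20 months Orm1 had 456, 658 and 503 CPM in KO, against 5311, 3479 and 697 CPM in WT. All KO libraries lay below all WT libraries in Orm1, and in Orm2 too, as in 4.83% of the genes tested at this age. The fitted KO over WT log2 change was -2.56 ± 0.69 (edgeR adjusted p = 0.821, DESeq2 adjusted p = 0.00837).

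Orm2 had 30.5, 7.96 and 14.6 CPM in the 4-week KO libraries and 8.76, 13.9 and 16.4 CPM in WT, and the groups overlapped. In log2 terms KO over WT was 0.45 ± 0.45 (edgeR adjusted p = 0.54). At 8 weeks it had 4.11, 9.89 and 27.6 CPM as the lowest, median and highest KO values, against 117.6, 129, 4.96 and 109 CPM in WT. WT library 3 was among the lowest of the 10 libraries, and the other WT libraries were above every KO library. The log2 fold change was -2.91 ± 0.75, with an edgeR adjusted p of 0.474 and a DESeq2 adjusted p of 0.043. With 1 library left out in turn, the DESeq2 call held in 5 of 10 fits, with adjusted p from 6.60e-07 (without WT library 3) to 0.219 (without WT library 1). It was lost without WT library 1, 2 or 4 or KO library 1 or 5.

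At 20 months Orm2 had 18.2, 13.8 and 17.9 CPM in KO, against 1785, 1829 and 20.8 CPM in WT. The groups did not overlap, although WT library 3 lay just above the KO livers. Its log2 fold change was -6.19 ± 1.44 (edgeR adjusted p = 0.821, DESeq2 adjusted p = 0.0054). Its KO difference at 20 months minus that at 4 weeks was -6.63 ± 1.56 (edgeR adjusted p = 0.0235).

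Orm3 had the lowest group median of the 3 Orm genes in each group. It had 55.6, 1.68 and 5.31 CPM in the 4-week KO libraries, which is 319, 8 and 24 counts, against 0.381, 0.356 and 1.93 CPM in WT, which is 2, 2 and 12 counts. KO library 1 was far above the rest, and KO library 2 lay within the WT range. Left out of the edgeR test by the low-count filter, it had a DESeq2 log2 fold change of 4.57 ± 1.495 (adjusted p = 0.025). That call rests on few libraries: without KO library 1 the log2 fold change was 1.97 (DESeq2 adjusted p = 0.153), and the call was also lost without WT library 1 (0.118) or WT library 2 (0.154). In the 8-week libraries it had 0.588, 7.37 and 21.7 CPM as the lowest, median and highest KO values, against 5.75, 4.62, 0.687 and 6.63 CPM in WT. The KO libraries spanned the WT range, and the log2 fold change was 1.13 ± 0.95 (edgeR adjusted p = 0.617).

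At 20 months Orm3 had 5.19, 4.60 and 15.0 CPM in KO, against 121, 64.9 and 11.6 CPM in WT. KO library 3 was above WT library 3, and the log2 fold change was -3.002 ± 0.86 (edgeR adjusted p = 0.821, DESeq2 adjusted p = 0.0126). The KO difference at 20 months minus that at 4 weeks was -7.50 ± 1.96 for Orm3 (edgeR adjusted p = 0.0362) and -6.96 ± 1.87 for Lcn2 (0.0398).

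Summed over the Orm genes, the log2 fold change was -0.72 at 4 weeks (edgeR adjusted p = 0.0809), which ended the call made for Orm1, -1.11 at 8 weeks (0.474) and -2.98 at 20 months (0.822). Orm1 gave most of the counts. In the 4-week KO library 1, however, Orm1 made 68.7%, Orm2 11.1% and Orm3 20.2% of Orm counts, against Orm1 shares of 95.4% and 92.6% in the other KO libraries and 95.9% to 97.2% in WT. In the 20-month KO libraries Orm2 made 3.80%, 2.04% and 3.34%, against 24.7%, 34.04% and 2.86% in the WT libraries. These shares are descriptions with no test.

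Hp and Hpx had the highest medians of the 10 per transcript length in each group except the 20-month WT livers. Hp had 2353, 2946 and 3700 CPM in the 4-week KO libraries and 2676, 4094 and 3893 CPM in WT, with overlap. Its log2 fold change was -0.24 ± 0.29 (edgeR adjusted p = 0.625). At 8 weeks it had 1668, 2605 and 3164 CPM as the lowest, median and highest KO values, against 3831, 3704, 1937 and 3830 CPM in WT. WT library 3 again lay inside the KO range, and the log2 fold change was -0.37 ± 0.24 (adjusted p = 0.543). At 20 months it had 2318, 2068 and 2169 CPM in KO, against 10660, 6684 and 1807 CPM in WT. WT library 3 lay below the KO livers, and the log2 fold change was -1.55 ± 0.61 (adjusted p = 0.821), and 0.27 without WT libraries 1 and 2.

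Hpx had 3035, 2806 and 3246 CPM in the 4-week KO libraries and 2944, 4699 and 3814 CPM in WT, and the groups overlapped (log2 fold change -0.33 ± 0.27, edgeR adjusted p = 0.45). In the 8-week libraries it had 2042, 2901 and 4179 CPM as the lowest, median and highest KO values, against 5871, 5538, 2907 and 6362 CPM in WT. Of the WT libraries, library 3 alone lay within the KO range. The fitted KO over WT log2 change was -0.78 ± 0.26 (edgeR adjusted p = 0.474). At 20 months it had 1761, 2058 and 2175 CPM in KO, against 11290, 8909 and 2032 CPM in WT, and the log2 fold change was -1.90 ± 0.61 (adjusted p = 0.821). WT library 3 lay between the KO values. Erythroid markers, a sign of hemoglobin-carrying cells, summed to 162 to 216 CPM in 4-week KO livers and 357 to 504 CPM in WT. At 8 weeks they summed to 148 to 628 CPM in KO and 164 to 213 CPM in WT, with a median log2 fold change of 1.34 over 7 genes, and at 20 months to 64.6 to 175 CPM in KO and 77.7 to 221 CPM in WT. Their part in the levels of Hp and Hpx was not tested.

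Per kilobase of principal transcript, the order of the genes by median level differed among groups. In 4-week KO livers Hp (2190 CPM per kb), Hpx (2025) and Orm1 (260.6) led and Saa3 (1.13) was lowest, against Hp (2894), Hpx (2545) and Orm1 (550) in WT with Orm3 (0.493) lowest. Saa4 stood at 11.1 CPM per kb in 4-week KO livers and 373.5 CPM per kb in WT. In 8-week KO livers the order began with Hp (1937), Hpx (1936) and Orm1 (508), against Hpx (3806), Hp (2801) and Saa1 (1667) in WT. In 20-month KO livers Hp (1613) and Hpx (1373) led, against Saa2 (42550) and Saa1 (36160) in WT, medians that rest on WT libraries 1 and 2.

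Over the 6 groups ordered by median CPM, the 20-month WT group came first in 9 of the 10 genes, with Saa4 the exception. Its range overlapped that of the next group each time. In Saa3, Hp and Hpx its lowest library lay below every library of the next group. Of the neighbours in these orders, 49 of 50 pairs of groups overlapped. The exception was Saa4 in 8-week KO livers (median 197.9 CPM) above 4-week KO livers (23.2 CPM), groups that also differ in read format.

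A test of whether the KO difference changed over the 3 ages, in 1 fit of all 22 libraries, called 0 of the 10 genes by edgeR, where 1.62% of 15877 genes were called. The smallest adjusted p were 0.0642 for Orm2 and 0.0749 for Saa4, and 8 of the 10 had an unadjusted p below 0.05, against 20% of the genes. DESeq2 called 5 of the 10 (Saa2, Saa4, Lcn2, Orm2 and Orm3), where it called 8.29% of genes. Between pairs of ages, the KO difference at 20 months minus that at 4 weeks passed in 4 genes (Saa4, Lcn2, Orm2 and Orm3, given above), where 4.52% of genes passed. Without 4-week KO library 1, a choice made after seeing the data, Orm2 passed (edgeR adjusted p = 0.0436) and Saa4 (0.0511), Lcn2 (0.0754) and Orm3 (0.159) did not. Without 20-month WT libraries 1 and 2 none of the 4 passed, with log2 values of 4.67 for Saa4, -1.27 for Lcn2, -0.80 for Orm2 and -5.00 for Orm3. Leaving out 20-month WT library 3 left each of the 4 past the threshold, and so did leaving out 8-week WT library 3. At 8 weeks minus 4 weeks 0 of the 10 passed, where 0.328% of genes did, and at 20 months minus 8 weeks 0 of the 10 passed, where 0% of genes did.

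At 4 weeks a few signalling genes upstream of these proteins were called, where edgeR called 10.8% of the 11144 genes tested. Of the 10 cytokine receptors tested, 1 was lower in KO, Lifr, the receptor subunit for leukemia inhibitory factor, at 80.3 ± 2.60 CPM in KO and 213 ± 42.5 CPM in WT (SD, n = 3 each), a log2 fold change of -1.40 (edgeR adjusted p = 0.00744). Of 20 signal transducers and transcription factors, Stat3 (1.13, adjusted p = 0.0225) and Cebpd (1.21, adjusted p = 0.0207), which encodes a C/EBP factor, were higher in KO and Tyk2 (-0.94, adjusted p = 0.0499), a Janus kinase, was lower. Among 10 inhibitors of the signal, Ptpn2, a phosphatase of the pathway, was higher (1.52, adjusted p = 0.0244) and the other 9 did not pass. The medians of these 3 lists were -0.12, -0.05 and 0.80, against 0.01 for the genes tested. Of 11 inducing cytokines, 2 passed the filter on low counts and neither was called.

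Other genes known to rise in the acute phase did not move one way at 4 weeks. Of 34 tested, 6 were higher and 6 lower in KO, with a median of -0.01. Over all genes tested, 5.17% were called higher and 5.6% lower. By DESeq2, 12 of 34 were higher and 7 lower, where it called 11.6% of genes in either direction. C9, a complement component, had 79.9 ± 17.8 CPM in KO and 682 ± 165 CPM in WT (-3.09, edgeR adjusted p = 8.14e-04). Hamp, which encodes the iron hormone hepcidin, had 2201 ± 860 CPM in KO and 198 ± 115 CPM in WT (3.48, edgeR adjusted p = 0.0068). Of 16 genes known to fall in the acute phase, 2 were lower and 0 higher in KO, with a median of -0.36. Those 2 were Igfals, the carrier subunit of insulin-like growth factors, at -3.07 (adjusted p = 0.00182), and the male-pattern steroid dehydrogenase gene Hsd3b5, at 0 to 0.349 CPM in KO and 8.19 to 160.0 CPM in WT (adjusted p = 0.00799).

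Of 10 receptor and clearance genes tested, Hmox1, the heme-degrading enzyme, was higher in KO (108.6 ± 49.2 against 21.4 ± 2.27 CPM in WT, 2.35, edgeR adjusted p = 0.0056). Cd36, a scavenger receptor, was also higher (0.90, adjusted p = 0.0459) and Blvrb, which acts on biliverdin, was lower (-1.32, adjusted p = 0.0227). Markers of cell types gave 1 of 10 hepatocyte genes higher, 0 of 3 adipose genes called, 4 of 5 erythroid genes lower and 0 of 2 neutrophil genes beside Lcn2 called at 4 weeks. These 4-week counts stand beside 10.8% of all genes tested that edgeR called. No gene of these lists passed the edgeR test at 8 weeks or at 20 months. At 8 weeks DESeq2 called 1 clearance gene and 1 macrophage marker higher, where it called 0.658% of genes. At 20 months it called 2 other positive acute-phase genes and 7 neutrophil markers beside Lcn2 lower, where it called 0.334% of genes. At 8 weeks, where 10.4% of genes had an unadjusted p below 0.05, this held for 4 of 35 positive and 1 of 16 negative acute-phase genes, 2 of 4 inducing cytokines, 1 of 10 receptors, 2 of 20 transducers, 1 of 10 inhibitors and 4 of 13 clearance genes. Among markers it held for 2 of 10 hepatocyte, 0 of 7 neutrophil, 2 of 12 macrophage, 1 of 3 adipose and 4 of 7 erythroid genes. At 20 months, where 5.53% of genes did, it held for 13 of 34 positive and 1 of 16 negative acute-phase genes, 0 of 5 inducing cytokines, 1 of 10 receptors, 1 of 20 transducers, 2 of 10 inhibitors and 1 of 14 clearance genes. Among the 20-month markers beside those of neutrophils it held for 2 of 12 macrophage genes and for 0 of 10 hepatocyte, 0 of 3 adipose and 0 of 5 erythroid genes.

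**Figure D5:**
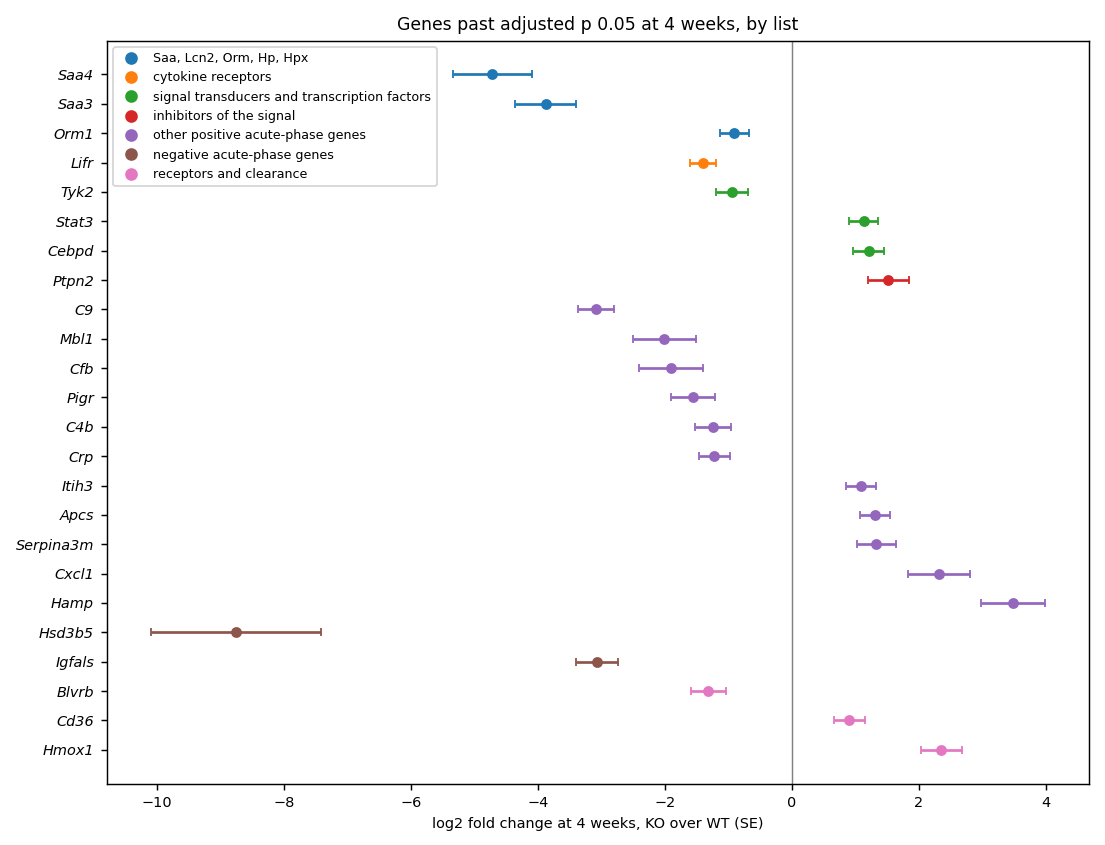
Log2 fold change of KO over WT with its SE at 4 weeks for the genes past an edgeR adjusted p of 0.05 in the acute-phase, signalling and clearance lists, coloured by list, with 1 positive acute-phase gene left out. Saa4 lies at -4.72, and positive acute-phase genes lie on both sides of 0. Saa3 lies at -3.88, a size that rests on 7, 3 and 1 KO counts. The fitted value of Hsd3b5 rests on KO counts under 3 per library and gives no size.

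At 20 months the 34 other positive acute-phase genes tested had a median log2 fold change of -0.89, against 0.00 for the genes tested, with 26 negative values and 0 called by edgeR (13 at an unadjusted p below 0.05). All 35 genes of that list summed to 30850 to 33110 CPM in KO, against 80910, 60740 and 29550 CPM in WT libraries 1 to 3. WT library 3 lay below each KO library, and the high sums were those of WT libraries 1 and 2. The 16 negative acute-phase genes had a median of 0.37. At 8 weeks the medians were -0.02 over 35 positive and 0.14 over 16 negative acute-phase genes, beside -1.27 for the 10 genes described here.

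Over all 22 libraries, the genes whose within-group deviations were most like those of Saa1, by Pearson correlation of log2 CPM among 10592 genes, were Saa2 (0.99), Prg4 (0.89), which encodes lubricin, and Orm2 (0.88). For Saa3 they were Clec4a3 (0.84), Ap3m2 (0.83) and Ms4a6b (0.83). For Lcn2 they were Itih3 (0.92), a subunit of the inter-alpha-trypsin inhibitors, and the metallothionein genes Mt1 (0.90) and Mt2 (0.89). For Hp they were Tmem176b (0.94), S100a8 (0.93) and Hpx (0.91). These libraries share depth and read format within an age, the 20-month WT libraries weigh heavily, and no test was made. In the 16 libraries of 4 and 8 weeks, Saa2 (0.98) still came first for Saa1 and Tmem176b (0.88) for Hp, while Ap3m2 (0.85) came first for Saa3 and Slc37a1 (0.91) for Lcn2. Over the 45 pairs of the 10 genes, the median correlation was 0.72 in 22 libraries and 0.58 in the 16.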

How the data were processed

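PolyA RNA of 22 liver libraries was read as counts per gene. Per the submitters' processing notes, HISAT2 2.0.4, HTSeq 0.6.1p1 and GRCm38 were used; the deposited counts are raw counts per gene made by the authors, and strand settings are not given in the sources used here. Lines that name no gene were left out of library sizes; unassigned (no feature) and ambiguous reads were 6.13% to 17.8% and 3.80% to 7.30% of the counted lines. Symbols came from GENCODE M21 by gene identifier. The lowest chi-square per degree of freedom between 2 libraries of a group was 7.65, so no library was a copy of another.

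The 2 genotypes were set against each other at each age in edgeR 4.0.16 (limma 3.58.1, R 4.3.3): filterByExpr, TMM factors, the quasi-likelihood test and Benjamini-Hochberg adjustment over all genes tested, with a threshold of 0.05. The SE is the log2 fold change divided by the square root of F. Log2 CPM used a prior count of 2. Changes of the KO difference over age came from 1 fit of 6 group means. DESeq2 1.42.0, other size factors, no filter, a replicate block, summed paralogs, 1 fit of 22 libraries and fits with a library left out were alternatives. The steps were tested on simulated data. Intervals and floors, set at 3 counts, cover counting error only, at a level of 95%.

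The 10 genes and the lists were chosen with earlier results of these data known. Named list genes are up to 3 per list and comparison with the smallest adjusted p past 0.05, plus markers of other cell types, Slc10a1, and the 3 genes most like Saa1, Saa3, Lcn2 and Hp at a mean log2 CPM of at least 1. One gene that the rule names is counted in its list but not reported here. Replicate numbers were not used to pair the samples, except in the replicate block.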

Additional observations from a re-analysis of the deposited data

Results flagged for a closer look

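In the 8-week WT group, library 3 was far below the other 3 libraries in 7 of the 10 genes. The gap to the nearest library, as a share of the group's range in log2 CPM, was 0.8868 for Saa1, 0.9482 for Saa2, 0.8347 for Saa4, 0.9021 for Orm1, 0.9486 for Orm2, 0.8339 for Orm3 and 0.9504 for Hp. Groups of this kind were looked at 20 times, and chance alone marks about 1 in 20. The genes share a library, so the 7 are not separate events. Without WT library 3, edgeR still called 0 of the 10 genes at 8 weeks and DESeq2 called 4 (Saa3, Orm1, Orm2 and Hpx). That library was marked by its low levels of these same genes, so calls gained without it are no test. The share of all genes that DESeq2 called in that fit was not counted.

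The KO difference at 20 months minus that at 4 weeks, on the log2 scale, was 4.1583 for Saa4, -6.9585 for Lcn2, -6.6341 for Orm2 and -7.5008 for Orm3, each past an edgeR adjusted p of 0.05. Lcn2, Orm2 and Orm3 had positive fitted differences at 4 weeks, when KO library 1 was the highest of the KO libraries, and negative ones at 20 months, when WT libraries 1 and 2 were high. Saa4 had its largest difference at 4 weeks. Without 4-week KO library 1, Orm2 alone of the 4 passed, and without 20-month WT libraries 1 and 2 none did. The ages also differ in read format and depth, which cannot be told apart from age.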

How the results depend on the processing

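At 4 weeks the 3 calls became 6 (4 lower, 2 higher) with no filter on low counts and 2 to 5 with a library left out (2 without WT library 2, WT library 3 or KO library 3, and 5 without KO library 1); by DESeq2 they were 4, and 3 to 5 with a library left out. The 22-library fit gave 2, as did the summed paralogs and the replicate block, each without Orm1. The replicate block called 0 at 8 weeks, 0 at 20 months and 0 over age. Deviations of same-numbered samples correlated at -0.40 to 0.075 at 4 and 8 weeks. At 20 months they correlated at 0.41, 0.03 and 0.46, and KO libraries 1 and 3 correlated best with their own number. Not every sample did so, and groups this small cannot decide whether the numbers pair the samples.

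At 8 weeks the count was 1 by DESeq2 and 0 to 4 by DESeq2 with a library left out (4 without WT library 3 or KO library 3). At 20 months it was 6 by DESeq2, 0 to 6 by edgeR (6 without WT library 3) and 0 to 9 by DESeq2 with a library left out (9 without WT library 3). The test over age called 5 by DESeq2, 2 with no filter and 0 to 6 with a library left out (6 without 20-month WT library 3, 2 without 8-week KO library 1, 1 without 8-week KO library 3). The cause was not tested. Beyond the main edgeR and DESeq2 fits, the share called over all genes was not counted for the fits of this section. Whether such counts are particular to these genes therefore cannot be told.

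Directions reversed in 8 of 633 values of single genes: Orm2 at 4 weeks without KO library 1 (-0.20 by edgeR, -0.188 by DESeq2; up to 0.81 by edgeR and 0.82 by DESeq2 with another library left out), and, at 20 months without WT libraries 1 and 2, Saa2 (0.0761 by edgeR, 0.0645 by DESeq2), Saa3 (0.69 and 0.68) and Hp (0.27 and 0.26). Of the others, 573 kept direction and side of the threshold, 43 newly passed it and 9 no longer did. The DESeq2 fits with a library left out, and those without WT libraries 1 and 2, were chosen after seeing the data. Depth limits Saa3 and Orm3 at 4 weeks, where single libraries hold 1 to 3 counts.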

Other observations

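In the 8-week KO group, the libraries differed from each other in genes beyond the 10. C9 had 22.3, 45.1, 1167, 1034, 181 and 20.98 CPM in KO libraries 1 to 6, against 808.5 to 1088 CPM in WT, and Saa4 had 34.8, 132, 803.5, 318.5, 226 and 169 CPM in the same KO libraries, against 507 to 956 CPM in WT. KO libraries 3 and 4 had the 2 highest values of both genes. Hmox1 had 139, 169, 15.8, 15.0, 179.5 and 103 CPM in those KO libraries and 16.4 to 27.7 CPM in WT, with KO libraries 3 and 4 the lowest. These genes were picked after their values were seen, and no test was made.

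The cytokine transcripts of the response were low at each age. The 11 inducing cytokines summed to 13.6 to 22.5 CPM in KO and 9.425 to 13.3 CPM in WT at 4 weeks. The sums were 8.52 to 14.2 CPM in KO and 6.53 to 8.85 CPM in WT at 8 weeks. They were 9.64 to 15.4 CPM in KO and 14.7 to 18.4 CPM in WT at 20 months. At 20 months Il6 had 0 to 0.0438 CPM in KO livers and 0 to 0.034 CPM in WT livers. Il1b had 0.57 to 2.73 CPM in KO and 2.69, 3.56 and 3.36 CPM in WT. Clcf1 had 0.834 to 2.60 CPM in KO and 5.34, 3.71 and 0.607 CPM in WT. Osm had 0 to 0.0438 CPM in KO and 1.63, 0.356 and 0 CPM in WT. Within WT, Il1a, Ctf1 and Cntf were instead lowest in library 1. Socs3, an inhibitor induced by the pathway, had 5.92 to 7.06 CPM in KO and 35.5, 20.6 and 6.23 CPM in WT. Apcs, the serum amyloid P component, had 50.1 to 95.3 CPM in KO and 998, 454.5 and 72.5 CPM in WT, with the high values again in WT libraries 1 and 2. These genes were chosen from the lists after their values were seen.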
